A study of Mus musculus with 16 samples.

Results

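The loss of p16 in hippocampus without a tau transgene was examined in 8 of the 16 RNA-sequencing libraries of the series, the 4 titled p16KO_1 to p16KO_4 and the 4 titled wildtype_1 to wildtype_4. The libraries were made from total RNA of the hippocampus of 8-month-old female mice and are called p16KO and WT here, with the replicate number of their title. Neither group carries the PS19 transgene, and the groups differ in their labels only by the p16 genotype, knockout or wildtype. The other 8 libraries, PS19 and PS19_p16KO with 4 each, carry PS19, a mutant human tau transgene driven by the mouse prion protein promoter, with p16 intact or knocked out. They entered the statistical model as a source of information on the spread, and they give the effect of the same knockout in other mice. The extent of the deleted segment, the cells that lack p16 and the strain background were not given in the sources used here. The labels do not state whether each library stands for its own mouse, and the p-values below therefore cover the variation among these 8 or 16 libraries, which may be technical in part.

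The protein p16INK4a binds the kinases CDK4 and CDK6 and keeps them from pairing with D cyclins. The retinoblastoma protein then stays unphosphorylated, E2F factors stay repressed and the cell does not enter S phase. Cdkn2a also encodes the unrelated protein ARF in another reading frame, which stabilises p53. Expression of p16 increases with age and marks senescent cells, which secrete cytokines, chemokines and proteases, and most mature cells of a young adult brain express very little of it.

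Gene counts of the 8 libraries lay between 18853521 and 22311322. The root mean square log2 difference over genes was 0.296 to 0.385 between pairs of WT libraries, 0.267 to 0.387 between pairs of p16KO libraries, and 0.279 to 0.433 between a WT and a p16KO library, so the ranges within and between the genotypes overlapped. Hippocampal markers were present in all 8, with 135 to 169 CPM of Prox1 (dentate granule cells) and 43.5 to 58.5 CPM of Nectin3 (CA2 and CA3 pyramidal cells). The number that opens each library name was lower in every WT than in every p16KO library. What it stands for is not stated, and anything that goes with it cannot be told apart from the p16 genotype. Choroid plexus genes stood apart in 1 library of each genotype. All 18 tested genes of that list were highest in p16KO replicate 4 and second highest in WT replicate 1, and Ttr, the transthyretin gene that defines this epithelium, was at 2980 and 713 CPM there against 16.8 to 153 CPM in the other 6 libraries. The unit CPM is the count of a gene relative to the TMM-adjusted depth of its library. Results are given with and without this pair of libraries where that mattered.

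The targeted gene was close to the limit of detection in both genotypes. Cdkn2a (ENSMUSG00000044303, GRCm38 chromosome 4, 89274471 to 89294653, minus strand) had 1, 1, 4 and 2 counts in WT replicates 1 to 4 and 1, 1, 1 and 0 counts in p16KO replicates 1 to 4. The mean was 0.104 CPM ± 0.0766 (SD, n = 4) in WT and 0.0369 CPM ± 0.0248 in p16KO (exact two-sided permutation p = 0.114, where 70 assignments allow no p below 0.0286). A count of 0 in p16KO replicate 4 allows up to 0.156 CPM, the level of 3 counts, counting error only. The direction was that of the labels, the groups overlapped, and whether the counted exons lie in the deleted segment is unknown. Cdkn2b, the neighbouring gene for the related inhibitor p15, had 23, 15, 16 and 17 counts in WT and 13, 8, 7 and 17 in p16KO. Its level was 0.908 CPM ± 0.218 against 0.56 CPM ± 0.238, a log2 difference of -0.69 ± 0.35 (standard error) that did not pass the test (edgeR quasi-likelihood test, adjusted p = 0.999).

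Of 16372 genes tested, 0 passed the threshold of 0.05 on edgeR's adjusted p in p16KO against WT (0.0%). The smallest adjusted p was 0.0647. At an unadjusted p under 0.05 there were 345 genes with a higher level in p16KO (2.11%) and 308 with a lower level (1.88%), together 3.99% of the genes tested. In 264 genes every p16KO library was above every WT library (1.61%), and in 218 every one was below (1.33%). DESeq2 called 18 genes (0.11%), limma-voom 9 (0.055%), and edgeR on the 8 libraries alone 9 (0.0568%). That last fit put 441 genes (2.78%) higher and 348 (2.2%) lower at an unadjusted p under 0.05. In the WT and p16KO libraries Mapt, the mouse tau gene, was at 507 CPM ± 42.9 and 533 CPM ± 17.3 (log2 0.07 ± 0.06, edgeR adjusted p = 0.999), and Prnp, the prion protein gene, at 1020 CPM ± 36.1 and 1070 CPM ± 7.27.

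The size of change that could have been seen depended mainly on the level of the gene. For a single gene to be called, the median fold change needed was 6.02-fold below 1 CPM, 2.51-fold between 1 and 10 CPM, 1.42-fold between 10 and 100 CPM and 1.29-fold above 100 CPM. The last 2 bands hold 7641 and 2346 genes. The measured differences were smaller, with a median absolute log2 fold change of 0.29, 0.13, 0.05 and 0.03 in the same 4 bands. The 95% interval of the fold change lay within 2-fold of no change in 14440 genes (88.2%) and within 1.5-fold in 11994 (73.3%). Below 1 CPM those shares were 31.1% and 0.0537%. A measured change of 2-fold could have been called for 0.0% of the 1862 genes of that band. A difference of more than 2-fold in either direction was estimated for 127 genes (0.776%), against 312 (1.91%) in PS19_p16KO against PS19.

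**Figure D1:**
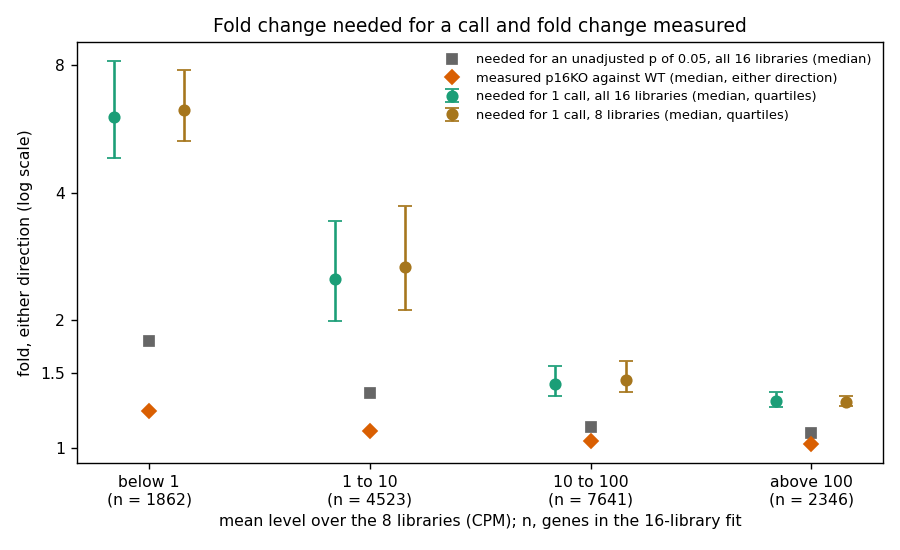
The vertical axis (log scale) shows the fold change, in either direction, needed for 1 gene to pass the adjusted threshold (circles, median and quartiles over genes, for the fit of all 16 libraries and of the 8 libraries alone), the fold needed for an unadjusted p of 0.05 (squares) and the fold measured (diamonds, medians). The horizontal axis groups genes by mean level in CPM, and the needed fold decreases from 6.02 below 1 CPM to 1.29 above 100 CPM while the measured median stays under it in every band.

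The precision also differed between cell classes, and within a class it changed with whether the transgenic libraries shared in the estimate of the spread. For 22 genes of disease-associated microglia the median fold needed for 1 call was 3.5 with all 16 libraries. With the 8 libraries alone it was 1.95, over the 21 of these genes tested there. For 16 general microglial genes it was 2.86 and 2.05. For 20 genes of mature oligodendrocytes it was 1.82 with all libraries and 2.38 with the 8 alone, and for 16 genes of pericytes and smooth muscle 3.35 and 5.13. The smaller set of libraries was therefore the more sensitive one for microglia and the less sensitive one for oligodendrocytes and mural cells. No gene of the marker lists was called in either fit.

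Single genes with the smallest p-values were examined next. Genes were ranked by p if their mean exceeded 0 log2 CPM and their WT and p16KO libraries did not overlap. Arhgef19, a guanine nucleotide exchange factor for small GTPases on chromosome 4 (141239499 to 141257564), had 17, 8.91, 11.4 and 10.8 CPM in WT and 22.5, 22.8, 23.6 and 19.2 CPM in p16KO. All p16KO libraries were above all WT libraries, and WT replicate 1 was the nearest to them. The log2 fold change was 0.88 ± 0.14 (edgeR adjusted p = 0.0763, DESeq2 2.59e-05, limma-voom 0.0125, edgeR on 8 libraries 0.286), and without WT replicate 1 edgeR's adjusted p was 0.000105. Fabp5, which encodes a fatty acid binding protein of glia and endothelium, had 33.5, 38.9, 39.5 and 40.6 CPM in WT and 71.8, 57.9, 51.8 and 50.3 CPM in p16KO (log2 0.60 ± 0.11, edgeR adjusted p = 0.0856). Gpatch11, a G-patch domain gene on chromosome 17 (78835567 to 78848308), had the smallest p among genes with a lower level in p16KO. It had 47.2, 45.8, 41 and 39.6 CPM in WT and 36.6, 26.7, 29.7 and 29.9 CPM in p16KO, with no overlap (log2 -0.50 ± 0.09, edgeR adjusted p = 0.0856, DESeq2 0.000804). Heatr5b, which ends beside it on the same chromosome (78752898 to 78835364), differed by -0.25 ± 0.07 on the log2 scale.

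A pair of genes on the same side of Arhgef19 also separated the genotypes. Rsg1, for a small GTPase of ciliogenesis (chromosome 4, 141213956 to 141226756), had a mean of 1.37 CPM ± 0.345 in WT and 2.84 CPM ± 0.341 in p16KO (log2 1.05 ± 0.22). Padi2, for an enzyme that converts protein arginine to citrulline and is abundant in oligodendrocytes (chromosome 4, 140906344 to 140952586), had 67.9, 76.3, 85.8 and 69.3 CPM in WT and 48.3, 43.1, 46.3 and 60.9 CPM in p16KO. Its log2 difference of -0.59 ± 0.15 was opposite in sign to that of every gene of the mature oligodendrocyte list below. DESeq2 called both Rsg1 (adjusted p = 0.0213) and Padi2 (0.017), and edgeR's test did not (0.182 and 0.628).

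The other genes with the smallest p-values had diverse functions. On the higher side they were Frmd4b, a scaffold protein (log2 0.42 ± 0.08), Tnnt1, slow skeletal troponin T (1.5 ± 0.29, 0.405 CPM in WT), Pon2, a paraoxonase of intracellular membranes (0.79 ± 0.15), Nnt, the mitochondrial proton-pumping transhydrogenase (0.58 ± 0.12), Josd2, a deubiquitinase (0.42 ± 0.09), Kcnj11, the pore subunit of ATP-sensitive potassium channels (0.55 ± 0.12), Cox7a2l, a respiratory supercomplex factor (0.31 ± 0.08), and Tusc1 (0.48 ± 0.12). On the lower side they were Paox, a polyamine oxidase (-0.53 ± 0.11), Klhl9, a ubiquitin ligase adaptor (-0.21 ± 0.05), Astn1, a neuronal adhesion protein (-0.23 ± 0.06), Ppwd1, a spliceosomal prolyl isomerase (-0.46 ± 0.13), Efcab6 (-0.56 ± 0.16), Dync2h1, the heavy chain of the ciliary dynein (-0.29 ± 0.08), Zfp180 (-0.22 ± 0.06), Gaa, the lysosomal acid glucosidase (-0.18 ± 0.05), and Cited2, a transcriptional coregulator (-0.19 ± 0.06). Most of these differences were under 1.5-fold, a size that could have been called for 0.0663% of genes between 1 and 10 CPM and 65.8% of those between 10 and 100 CPM.

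Gbp2b, an interferon-inducible guanylate binding protein gene (chromosome 3, 142594847 to 142619179), had the smallest p of all genes. It had 0, 0, 0 and 3 counts in WT and 18, 19, 35 and 15 counts in p16KO, a ratio of the summed counts of 28.5 after library scaling (exact 95% interval 9.43 to 141, counting error only). The adjusted p of edgeR was 0.0647, and DESeq2, limma-voom and the 8-library fit gave 0.000603, 0.0249 and 0.0222. The PS19 libraries, with p16 intact, held 69, 45, 29 and 18 counts and the PS19_p16KO libraries 27, 22, 36 and 21, so the WT libraries were the only group with so few counts. The difference between the p16 effects with and without the transgene was -5.22 on the log2 scale (edgeR interaction, adjusted p = 0.0505).

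DESeq2, limma-voom and the 8-library fit together called 22 genes, 13 higher and 9 lower, and 5 were called by all 3: Gbp2b, Pon2, Nnt, Frmd4b and Gm26825. In all 22 the libraries of the genotypes did not overlap (2.94% of all genes tested), which being called on those libraries favours. Pon2 had 26.3, 25.8, 25.3 and 29.7 CPM in WT and 45.7, 44.1, 47.2 and 47.7 CPM in p16KO, and its adjusted p was 0.182 with all 16 libraries and 2.21e-05 with the 8 alone. The lincRNA Gm26825 (chromosome 5, 5781530 to 5783636) had 48.5, 54.4, 50 and 53.4 CPM in WT and 22.1, 24.7, 27.6 and 26.1 CPM in p16KO (log2 -1.04 ± 0.18, edgeR adjusted p = 0.147 with 16 and 5.04e-06 with 8 libraries). It lies over the pseudogene Gm15459 (5781615 to 5783555), and because the strand setting of the counting is not known, reads of the pair cannot be told apart. Hspa8, the constitutive Hsc70 chaperone, had 982, 985, 951 and 1030 CPM in WT and 1140, 1150, 1240 and 1250 CPM in p16KO (log2 0.28 ± 0.07, edgeR adjusted p = 0.607 with 16 and 0.0372 with 8 libraries).

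For several of these genes the PS19_p16KO libraries were far apart. PS19_p16KO replicate 4 had a level near that of WT for Pon2 (28.5 CPM against 36.7, 40.1 and 56.9 CPM in replicates 1 to 3), Nnt (20.5 against 25.4 to 34.1), Kcnj11 (26.2 against 33.7 to 38.9), Hspa8 (917 against 1140 to 1240) and Gm26825 (47.7 against 22.4 to 27.6). In 11 of the 22 genes this library lay nearer to the WT mean than to the p16KO mean on a log2 scale, against 3, 3 and 4 genes for the other PS19_p16KO libraries. Without it edgeR called 8 genes in p16KO against WT: Gbp2b, Arhgef19, Gpatch11, Nnt, Pon2, Gm26825, Gm15459 and Kcnj11. Pon2, highest in PS19_p16KO replicate 3, had an adjusted p of 0.0124 without replicate 4 and 0.000963 without replicate 3. The remaining counts of calls were 3 without PS19_p16KO replicate 3 (Gbp2b, Nnt and Pon2), 2 without WT replicate 1 (Arhgef19 and Cldn11), 1 without each of WT replicate 4, p16KO replicate 1, p16KO replicate 3, PS19 replicate 1 and PS19 replicate 4, and 0 for the other 8 libraries.

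**Figure D2:**
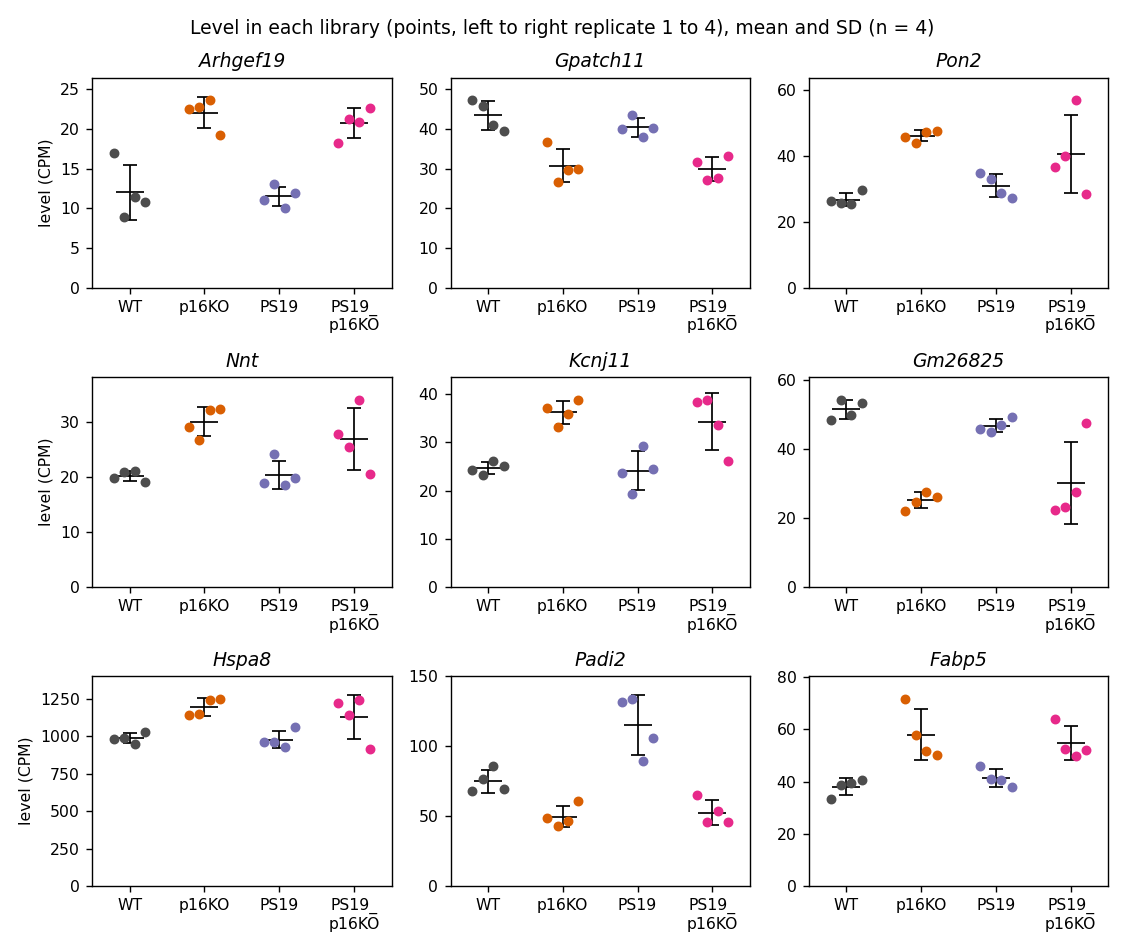
Level in CPM (vertical axis, from 0) of 9 genes in the 16 libraries (points) of the 4 groups, with the mean and SD of each group (n = 4). WT and p16KO do not overlap in any panel, while PS19_p16KO replicate 4 lies with the WT and PS19 libraries for Nnt, Kcnj11 and Gm26825, at 917 CPM for Hspa8 and at 28.5 CPM for Pon2.

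The same knockout was present in PS19_p16KO against PS19, which shares no library with p16KO against WT. Of the 12 named genes with the smallest p on the higher side, 11 had a positive sign there, and 2 were called, Arhgef19 (log2 0.85 ± 0.14, edgeR adjusted p = 0.00947) and Cox7a2l (0.40 ± 0.08, 0.0171). Gbp2b had the opposite sign. Of the 12 on the lower side, all 12 were negative and 3 were called, Gpatch11 (-0.43 ± 0.09, adjusted p = 0.0234), Klhl9 (-0.24 ± 0.05, 0.0187) and Padi2 (-1.13 ± 0.15, 0.00547). In that comparison 0.825% of all genes were called, 50.6% had a positive sign and 4.09% had no overlap in either direction. Of the named genes, 4 on the higher and 6 on the lower side had no overlap there in the same direction. Over all genes without overlap in p16KO against WT, 158 of the 264 higher ones (59.8%) and 153 of the 218 lower ones (70.2%) had the same sign with the transgene. Of those 264 genes, 11 were higher and 15 lower without overlap with the transgene, and of the 218 genes 2 were higher and 13 lower.

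Pseudogenes and a noncoding transcript were among the strongest contrasts. Hist1h2al, listed as a pseudogene by the annotation, had 1 count in all over the WT libraries and 67, 23, 37 and 5 counts in p16KO, a ratio of 130.0 (exact 95% interval 22.9 to 5160). Gm15442 had 0 counts in every WT library and 17, 10, 11 and 11 in p16KO, at least 16-fold higher with the floor of 3 counts taken over the WT group. Gm17167, listed as a processed transcript, had 27, 21, 22 and 8 counts in WT and 0, 1, 0 and 2 in p16KO, a ratio of WT over p16KO of 26.5 (8.73 to 131). The PS19_p16KO libraries, with the same knockout, were uneven for these 3. They held 1, 16, 1 and 33 counts of Hist1h2al (PS19 0, 1, 0 and 0) and 14, 0, 0 and 1 of Gm15442 (PS19 0 in each). For Gm17167 they held 0, 9, 11 and 24 counts, and PS19 7, 28, 5 and 18. Gm6166 had 5.89, 7.56, 7.12 and 7.62 CPM in WT and 0.36, 0.461, 3.95 and 0.104 CPM in p16KO, where replicate 3 stood apart, and Gm8355 had a log2 difference of -0.78 ± 0.16. In PS19_p16KO against PS19 the log2 differences of Gm6166 and Gm8355 were -4.55 ± 0.75 and -0.42 ± 0.16. Gm6166 was called there and had no overlap (edgeR adjusted p = 0.0171), and Gm8355 was not called and overlapped (0.372). Processed pseudogenes share sequence with their parent genes, so the values of the 4 pseudogenes are uncertain. In p16KO against WT edgeR's adjusted p was between 0.182 and 0.608 for all 5.

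Genes close to Cdkn2a separated the genotypes more often than the rest of the genome. Within 10 Mb of it, 8 of 55 tested genes had no overlap between WT and p16KO (14.5%), where the share over all genes was 2.94% and per chromosome ran from 1.41% to 4.79%. They were Klhl9, Mtap, Focad, Ccdc171 and Gm12655 on the lower side and Tusc1, Caap1 and Cyp2j6 on the higher side. Klhl9 (88718292 to 88722465) had 118, 126, 118 and 118 CPM in WT and 107, 109, 104 and 95.1 CPM in p16KO. Mtap, for the enzyme that recycles methylthioadenosine (89137122 to 89181081) and the nearest of the 8 to Cdkn2a, had 9.33, 11.4, 9.8 and 11.8 CPM in WT and 7.38, 8.09, 8.72 and 9.22 CPM in p16KO (log2 -0.34 ± 0.13). Cyp2j6, an epoxygenase of arachidonic acid, had 14.5 CPM ± 0.362 in WT and 17.9 CPM ± 0.729 in p16KO (0.30 ± 0.08). None of the 8 was called by edgeR in p16KO against WT. Klhl9 was called by DESeq2 (adjusted p = 0.0194), and neighbouring genes are not independent of each other. In PS19_p16KO against PS19, Klhl9, Gm12655 and Tusc1 had no overlap in the same direction. Mtap, Focad, Ccdc171, Caap1 and Cyp2j6 overlapped there, and Cyp2j6 had the opposite sign (log2 -0.08 ± 0.08).

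Genes of the cell cycle brake were compared next, followed by E2F targets. The first list holds inhibitors as well as kinases and cyclins, so its median has no single expected direction. Of the 19 tested genes for INK4 and CIP/KIP inhibitors, G1 kinases, D cyclins, the Rb family and p53, 11 were positive, 0 had an unadjusted p under 0.05, and the median log2 fold change was 0.04. Ccnd1, for cyclin D1, had 49.9, 29.8, 30.6 and 45.7 CPM in WT and 48.1, 37.2, 49.1 and 55.8 CPM in p16KO (log2 0.29 ± 0.17). Cdkn1b, for the inhibitor p27, was at 56.3 CPM ± 1.41 and 59.5 CPM ± 3.08. The 20 tested E2F targets and proliferation genes had 11 positive, 0 at an unadjusted p under 0.05 and a median of 0.02. Mcm6, a subunit of the replicative helicase, was at 17.7 CPM ± 1.55 and 20.4 CPM ± 2.12, Ccne1, for cyclin E1, at 10.6 CPM ± 1.29 and 12.5 CPM ± 2.64, and Pcna, the replication clamp, at 41.0 CPM ± 0.729 and 41.5 CPM ± 3.15. The fold change of Pcna had a 95% interval of 0.923 to 1.11. Dcx, which marks neuroblasts and immature neurons, was at 10.4 CPM ± 0.639 and 9.6 CPM ± 0.312, and 4 of the 8 genes of that list were positive.

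Of 32 listed genes for factors of senescent cells, 10 were too low to be tested: Il6, Tnf, Cxcl1, Ccl2, Ccl4, Ccl5, Mmp3, Mmp12, Timp1 and Gdf15. Of the 22 tested, 11 were positive, the median was -0.02, and the 95% interval lay within 2-fold of no change in 17. Il1a, for interleukin 1 alpha, had 0.834, 0.945, 0.685 and 1.07 CPM in WT and 0.18, 0.563, 0.513 and 0.417 CPM in p16KO, with no overlap (log2 -1.08 ± 0.41, edgeR adjusted p = 0.999). Vegfa, the endothelial growth factor, was at 33.6 CPM ± 1.87 and 38.8 CPM ± 2.77, also with no overlap (0.21 ± 0.10). Ccl3, for a macrophage chemokine, had a log2 difference of -0.96 ± 0.48. Of the 27 tested interferon-stimulated genes 15 were positive with a median of 0.06. Xaf1 among them had 2.35, 10.8, 11.8 and 7.36 CPM in WT and 2.11, 2.51, 3.44 and 2.19 CPM in p16KO, where WT replicate 1 lay with the knockout libraries.

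Small differences in 1 direction appeared when genes were grouped by the cell class that they mark. Of 30 lists, 20 had a positive median, over all genes 49.7% were positive with a median log2 fold change of -0.00083, and no list was separated by genotype in every library. Of the 20 positive medians 12 stayed positive in every alternative setting, and of the 10 negative ones 2 stayed negative. In bulk tissue more cells of a class and more RNA per cell cannot be told apart. The lists are described by counts and medians, with no test. Genes of 1 list can rise and fall together between libraries. Their counts are therefore not independent observations, also where the share over all genes stands beside them.

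Mature oligodendrocyte genes were higher in p16KO by a median of 0.31 on the log2 scale. All 20 tested genes were positive, and 12 had an unadjusted p under 0.05 (2.11% of all genes in that direction), but the smallest edgeR adjusted p was 0.628. Fa2h and Ugt8a, which make the hydroxylated galactolipids of myelin, differed by 0.46 ± 0.13 and 0.33 ± 0.10 on the log2 scale. The level of Fa2h was 32.4, 22.6, 24 and 23.5 CPM in WT and 36.3, 39.1, 30.4 and 34.9 CPM in p16KO, and WT replicate 1 alone reached into the p16KO range. Opalin, a membrane protein of myelinating oligodendrocytes, was at 12.9 CPM ± 1.34 and 16.9 CPM ± 0.556, and Ninj2, an adhesion protein, at 0.86 CPM ± 0.168 and 1.54 CPM ± 0.507. Of the 20 genes, Opalin and Ninj2 alone had no overlap (1.61% of all genes in that direction).

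WT replicate 1 set the overlap in this list. It was the highest WT library in 19 of the 20 genes, and the median of the list over genes, relative to the WT mean of log2 CPM, was 0.31, -0.14, -0.06 and -0.15 in WT replicates 1 to 4 and 0.35, 0.45, 0.20 and 0.29 in p16KO. Leaving out any 1 of the 8 libraries moved the median fold change between 0.25 (without WT replicate 4) and 0.43 (without WT replicate 1). Without WT replicate 1, a library singled out after its values were seen, 17 of the 20 genes had no overlap, against 4.18% of all genes, and Cldn11, for the tight junction protein of myelin, was called (edgeR adjusted p = 0.0219). With WT replicate 1 and p16KO replicate 4 both left out the median was 0.44. WT replicate 1 was also high in choroid plexus genes, and the part of that in the difference was not tested.

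Oligodendrocyte precursor genes had a median of 0.07, between 0.04 and 0.19 over the alternatives, with 10 of 12 positive. Its members differed in sign. Cspg4, for the NG2 proteoglycan of precursors, had 21.9, 22.1, 20.3 and 21.8 CPM in WT and 18, 17.2, 19.9 and 18.5 CPM in p16KO (log2 -0.23 ± 0.07). Gpr17, a receptor of committed precursors about to differentiate, had 43.4, 31.8, 34.4 and 39 CPM in WT and 51.3, 46.4, 48.5 and 42.6 CPM in p16KO (0.35 ± 0.11). The adjusted p-values from edgeR were 0.873 and 0.823.

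**Figure D3:**
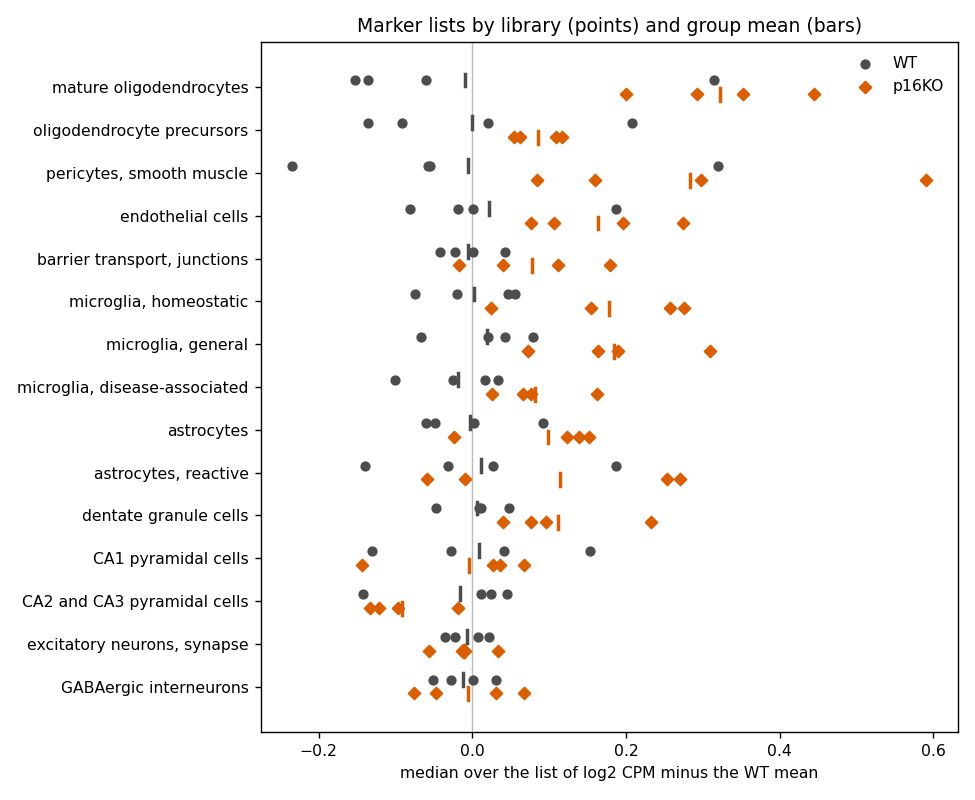
Each point is 1 library, placed on the horizontal axis by the median over the tested genes of a marker list of log2 CPM minus the WT mean, with WT as circles and p16KO as diamonds, and short bars show the mean of each group (n = 4). The p16KO libraries lie between 0.20 and 0.45 for mature oligodendrocytes, where WT replicate 1 at 0.31 is among them and the other WT libraries are at or below -0.06, and the genotypes overlap in every list.

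Genes of the vessel wall were mostly positive too. Of 16 genes of pericytes and smooth muscle 14 were positive with a median of 0.28. At an unadjusted p under 0.05 there were 6, all higher (2.11% of all genes in that direction). The median was 0.17 without either WT replicate 2 or p16KO replicate 2 and 0.44 without WT replicate 3. Mcam, an adhesion molecule of mural cells, had 17.6, 13.9, 14.2 and 14.8 CPM in WT and 19.3, 20.4, 18.8 and 19.4 CPM in p16KO (log2 0.37 ± 0.10, edgeR adjusted p = 0.628). The contractile genes of smooth muscle had the largest differences and rested in part on p16KO replicate 2, which was the highest p16KO library in 14 of the 16 genes. Tagln, for transgelin, had 0.834, 1.13, 2 and 0.698 CPM in WT and 1.71, 4.4, 2 and 1.82 CPM in p16KO (1.09 ± 0.33). Myh11, the smooth muscle myosin, had 5.16, 5.45, 7.27 and 6.34 CPM in WT and 7.06, 19.9, 9.08 and 7.87 CPM in p16KO (0.86 ± 0.27), and Myl9, its light chain, differed by 0.50 ± 0.19. The genes of fibroblasts and meninges, which can be carried into a dissection, were positive in 14 of 14 with a median of 0.33, which ran from 0.14 (without p16KO replicate 2) to 1.07 (without WT replicate 3). Their median by library was 0.20, -0.55, 1.31 and -0.99 in WT and -0.06, 1.34, 0.23 and 0.62 in p16KO. The part of meningeal tissue in the mural values was not tested.

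Endothelial identity genes had a median of 0.15 with 16 of 20 positive, and 0 had no overlap. WT replicate 3 was the highest WT library in 12 of the 20. Its list median of 0.19 was above those of p16KO replicates 1 and 4, at 0.08 and 0.11. At an unadjusted p under 0.05 there were 2 genes of the list, both higher (2.11% of all genes in that direction). These were Sox17 (3.4 CPM ± 0.555 in WT and 4.84 CPM ± 1.44 in p16KO) and Sox18 (5.36 CPM ± 0.992 and 7.28 CPM ± 1.42), transcription factors of endothelial and arterial identity. Esam, an endothelial adhesion molecule, differed by 0.23 ± 0.12 and Flt1, a VEGF receptor, by 0.16 ± 0.08. Cldn5, the main claudin of the blood-brain barrier, did not share that sign, at 31.1 CPM ± 4.36 and 30.9 CPM ± 3.47 (95% interval of the fold change 0.819 to 1.2). Of 15 barrier transport and junction genes 11 were positive with a median of 0.10. Abcg2, an efflux pump, was at 13.1 CPM ± 0.37 and 14.8 CPM ± 1.22, and Slc2a1, the glucose transporter, at 92.8 CPM ± 16.1 and 99.4 CPM ± 7.06.

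Microglial genes were higher in p16KO by a small margin, and none passed the test. All 14 homeostatic genes were positive with a median of 0.17, and 2 had an unadjusted p under 0.05 (2.11% of all genes in that direction). Slc2a5, a fructose transporter of microglia, had 5.26, 5.36, 3.85 and 3.87 CPM in WT and 5.76, 6.3, 7.29 and 6.2 CPM in p16KO (log2 0.47 ± 0.17), and Selplg, the P-selectin ligand, 29.8, 22.6, 23.5 and 25.2 CPM against 30.6, 29.7, 28.6 and 29.1 CPM (0.22 ± 0.08). Tmem119 and P2ry12, which define resting microglia, differed by 0.15 ± 0.08 and 0.16 ± 0.08. The median of this list by library was 0.056, 0.046, -0.02 and -0.074 in WT, relative to the WT mean of log2 CPM. It was 0.276, 0.257, 0.155 and 0.024 in p16KO replicates 1 to 4, so p16KO replicate 4 lay within the WT range. With the 8 libraries alone, 7 of the 14 had an unadjusted p under 0.05 (2.78% of all genes in that direction) and 0 were called.

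General genes of microglia and macrophages were positive in 15 of 16 with a median of 0.17. Here too p16KO replicate 4 lay within the WT range, with a list median of 0.073 against 0.079 in WT replicate 2. Laptm5, a lysosomal protein of haematopoietic cells, had 32.9, 33, 30.4 and 33.3 CPM in WT and 39.3, 38.4, 36.2 and 36.6 CPM in p16KO, with no overlap (log2 0.22 ± 0.15). Fcgr3, an Fc receptor, differed by 0.46 ± 0.19 and was highest in p16KO replicates 1 and 2. Of 22 genes of disease-associated microglia 19 were positive with a median of 0.11 and 0 at an unadjusted p under 0.05. Cst7, a cystatin that is barely expressed by resting microglia, had 0.208, 0.225, 0.0527 and 0.268 CPM in WT and 0.585, 0.307, 0.513 and 0.365 CPM in p16KO, and Apoe, for apolipoprotein E, was at 1890 CPM ± 247 and 1960 CPM ± 63.8. The medians of the 3 microglial lists stayed positive in all 17 alternative settings, between 0.07 and 0.25.

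Astrocyte identity genes were positive in 12 of 14 with a median of 0.10. S1pr1, a sphingosine phosphate receptor, had 132, 123, 117 and 129 CPM in WT and 146, 137, 157 and 132 CPM in p16KO (log2 0.19 ± 0.07). Of 12 reactive astrocyte genes 9 were positive with a median of 0.11, which ran from -0.01 (without p16KO replicate 1) to 0.19 (without p16KO replicate 3) over the alternatives. The list was high in p16KO replicates 1 and 2, at 0.27 and 0.25 relative to the WT mean, and not in replicates 3 and 4, at -0.01 and -0.06. Emp1 (1.54 CPM ± 0.257 in WT and 2.35 CPM ± 0.435 in p16KO) and Osmr, the oncostatin M receptor (4.17 CPM ± 0.475 and 5.42 CPM ± 0.48), were the 2 without overlap (1.61% of all genes in that direction). Gfap, the filament of reactive astrocytes, did overlap, with 563, 484, 600 and 448 CPM in WT and 684, 525, 515 and 476 CPM in p16KO.

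**Figure D4:**
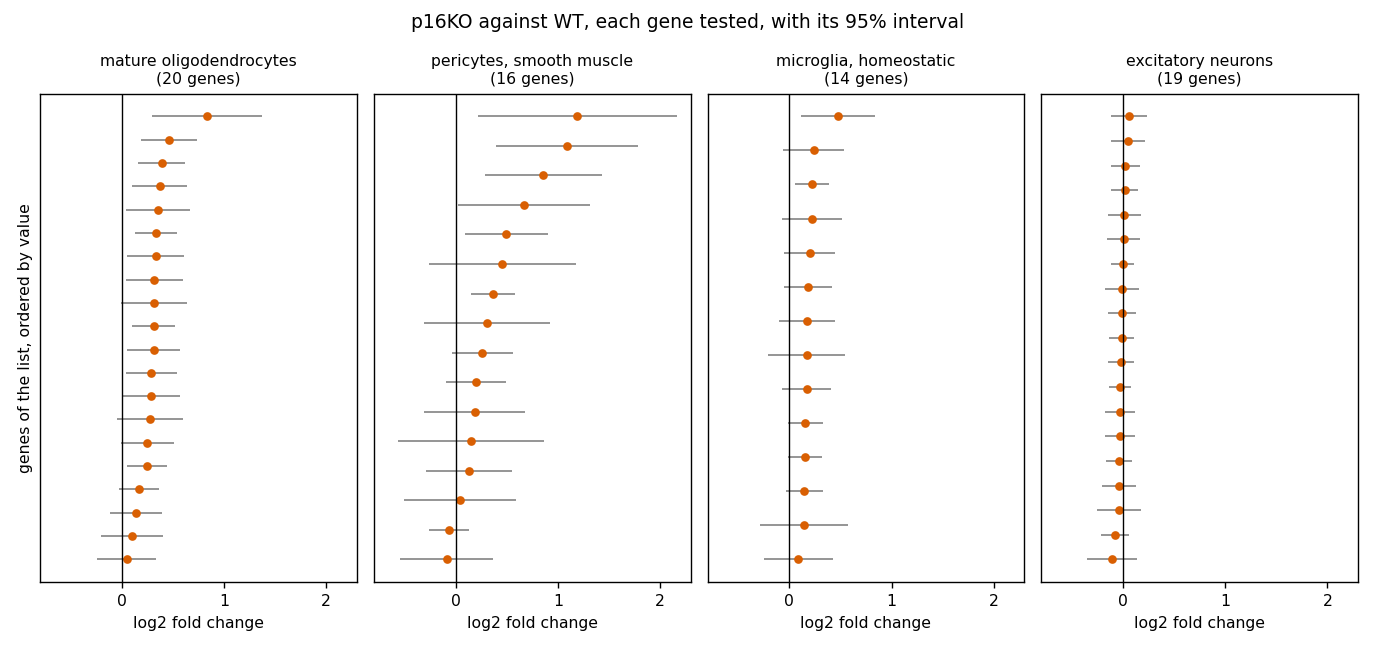
Log2 fold change of p16KO against WT (horizontal axis) for each tested gene of 4 marker lists, with its 95% interval as a line and genes stacked in order of value on the vertical axis. All 20 oligodendrocyte and all 14 homeostatic microglial genes lie right of 0, most intervals include or come near 0, the smooth muscle genes have the widest intervals, and the excitatory neuron genes lie within a narrow band around 0.

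Genes of excitatory neurons gave the tightest limits of the 30 lists, with a median fold of 1.36 needed for 1 call. Of 19 genes of excitatory neurons and their synapses 6 were positive with a median of -0.01, 0 had an unadjusted p under 0.05, and in all 19 the 95% interval lay within 1.5-fold of no change. Nrgn, for the postsynaptic protein neurogranin, had 1230, 1080, 1270 and 1280 CPM in WT and 1300, 1180, 1220 and 1250 CPM in p16KO. Granule cells of the dentate gyrus had 11 of 13 genes positive with a median of 0.09 and 3 higher with no overlap (1.61% of all genes in that direction), among them Prox1, the transcription factor that sets granule cell identity, with 140, 135, 140 and 141 CPM in WT and 169, 162, 152 and 148 CPM in p16KO (log2 0.18 ± 0.08). C1ql2, a synaptic organiser of their mossy fibres, differed by 0.22 ± 0.08. Genes of CA2 and CA3 pyramidal cells had the opposite sign, with 3 of 13 positive and a median of -0.09 that ran from -0.14 to -0.02, and Nectin3, an adhesion molecule of that list, was at 53.5 CPM ± 4.17 and 47.9 CPM ± 3.57. Of 13 interneuron genes 5 were positive with a median of -0.02, and Dlx1, a transcription factor of interneurons, was lower with no overlap (43.4 CPM ± 2.81 and 38.4 CPM ± 3.57, log2 -0.18 ± 0.08). Immediate-early activity genes were positive in 1 of 14 with a median of -0.13, which ran from -0.26 to 0.01 over the alternatives. Their median by library was -0.43, 0.11, 0.30 and 0.06 in WT and -0.16, -0.38, 0.21 and 0.01 in p16KO. Ribosomal protein genes were positive in 12 of 22 with a median of 0.00.

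Cholesterol synthesis genes included 3 of 22 without overlap, all higher (1.61% of all genes in that direction), beside 15 positive and a list median of 0.04, which was -0.00397 without p16KO replicate 3. Sc5d, a late enzyme of the pathway, had 59.7, 61.5, 61.4 and 62.9 CPM in WT and 76.5, 68.4, 79.1 and 71.7 CPM in p16KO (log2 0.27 ± 0.08, edgeR adjusted p = 0.774). Idi1 (0.22 ± 0.11) and Mvd (0.23 ± 0.13) also had no overlap. Hsd17b7, whose libraries overlapped, differed by 0.23 ± 0.09. The 95% interval lay within 1.5-fold of no change for all 22 genes.

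The same classes were then set beside PS19_p16KO against PS19, and the difference was tested as the interaction of the genotypes. Median log2 fold changes with the transgene were -0.37 for homeostatic, -1.06 for general and -0.98 for disease-associated microglial genes and -1.04 for reactive astrocyte genes. Without it the medians of the 3 microglial lists were positive, and that of reactive astrocyte genes was 0.11, or -0.01 without p16KO replicate 1. In the interaction, 10 of 14 homeostatic, 15 of 16 general and 18 of 22 disease-associated microglial genes and 9 of 12 reactive astrocyte genes were more negative with the transgene at an unadjusted p under 0.05, against 4.16% of all genes. None of these list genes was called, with a smallest adjusted p of 0.0505. Over all genes 1 was called by edgeR (0.00611%), C3ar1, the receptor for complement fragment C3a (log2 -2.52, adjusted p = 0.00248), and 160 were called without PS19 replicate 3 and 88 by DESeq2. C3ar1 had 1.2, 1.22, 0.896 and 1.23 CPM in WT and 2.02, 1.84, 1.74 and 2.24 CPM in p16KO, with no overlap (log2 0.78 ± 0.24, adjusted p = 0.774), whereas PS19 libraries had 8.45, 9.25, 4.48 and 7.01 CPM and PS19_p16KO libraries 1.72, 1.86, 2.7 and 2.51 CPM.

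Oligodendrocyte and mural medians with the transgene were -0.01 and -0.03, where they were 0.31 and 0.28 without it. In the interaction 1 of 20 and 1 of 16 of those genes were more negative at an unadjusted p under 0.05, so a difference between the p16 effects in these classes was not detectable gene by gene. Opalin was positive in both settings (0.39 ± 0.11 without and 0.32 ± 0.11 with the transgene). Endothelial and barrier genes had medians of 0.07 and 0.10 with the transgene. Dentate granule cell genes were positive in 12 of 13 with a median of 0.20, and cholesterol genes in all 22 with a median of 0.35, and 11 of those 22 were more positive with the transgene at an unadjusted p under 0.05 (1.28% of all genes in that direction).

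**Figure D5:**
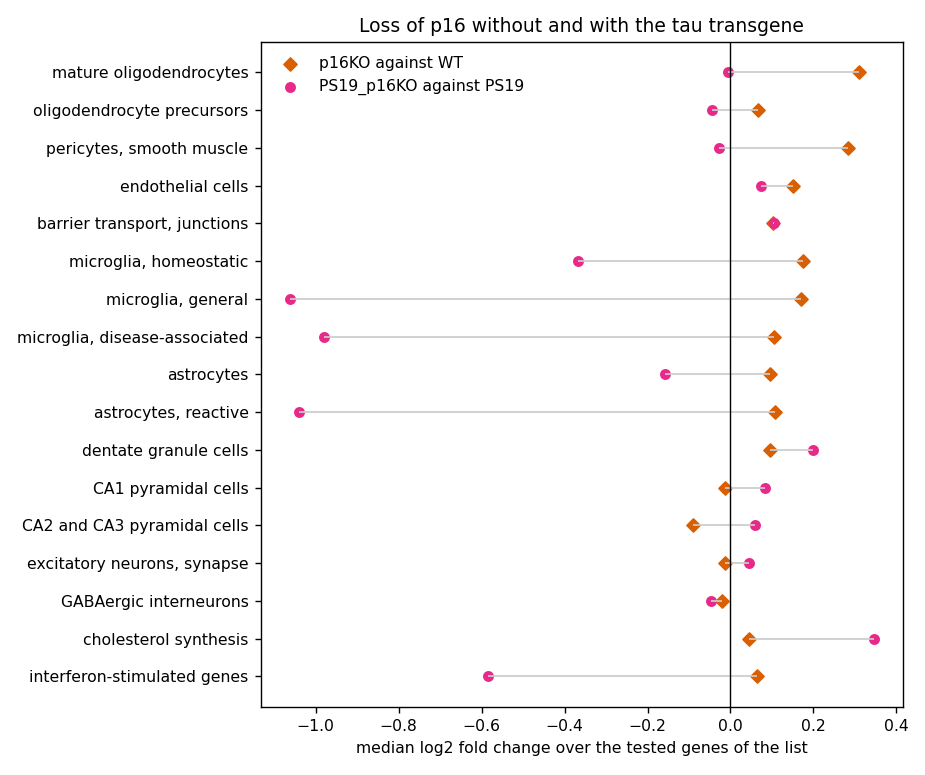
Median log2 fold change over the tested genes of 17 lists (horizontal axis) for p16KO against WT (diamonds) and PS19_p16KO against PS19 (circles), which share no library. Without the transgene the medians lie between -0.09 and 0.31, and with it those of general and disease-associated microglia and reactive astrocytes lie between -1.06 and -0.98.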

How the data were processed

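Hippocampal RNA was measured in 16 libraries, of which 8 (WT and p16KO) form the comparison. The authors deposited raw counts per gene in 1 table. Per the submitters' processing notes the tools were STAR 2.5.2b, Trimmomatic 0.36, Subread 1.5.2, featureCounts and DESeq2, and the build was GRCm38. Which annotation release and strand setting the authors counted with was not given in the sources used here. Overlapping genes may therefore share reads. Symbols and coordinates came from a GENCODE annotation of GRCm38. ERCC spike-in rows, 0.5735% to 0.8488% of the counts of the 8 libraries, were left out.

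Counts were tested with edgeR 4.0.16 (R 4.3.3, TMM, filterByExpr with a minimum count of 10, robust quasi-likelihood fit of all 16 libraries with a mean per group) and p-values were adjusted by Benjamini-Hochberg over 16372 genes. Standard errors come from the F statistic, 95% intervals and needed folds from its t quantile, and 1 call needs an unadjusted p of 3.05e-06. Depth per library was 18485552 to 22311322 gene counts, and replicates of the 8 libraries differed by more than sampling noise (chi-square per degree of freedom 4.82 to 16.2). Cdkn2a, too low for the fit, was tested by exact permutation.

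The 30 gene lists and the comparison were chosen with earlier results of these data known. Named genes are Cdkn2a, Cdkn2b, Mapt, Prnp, genes called under any setting, the 12 smallest p in each direction among genes above 0 log2 CPM with no overlap (predicted models left out), up to 4 members with the smallest p and the most abundant member of each list, and genes without overlap within 10 Mb of Cdkn2a. C3ar1 was named after its values were seen, and not all genes that the rule gives are reported here. The results were recomputed with DESeq2 1.42.0, with limma-voom and sample weights (limma 3.58.1), with RLE scaling, without a filter, with a filter of CPM above 1 in 4 libraries, with a block for the replicate number, with a term for the suffix digit of library names, on the 8 libraries alone and leaving out each library. Leaving out WT replicate 1 with p16KO replicate 4, leaving out transgenic libraries and describing PS19_p16KO against PS19 were added after seeing the data. The procedure was tested on simulated counts.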

Additional observations from a re-analysis of the deposited data

Results flagged for a closer look

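In the groups of 4 libraries, a library was picked out when its gap to the nearest other library exceeded Dixon's 95% critical share of the group's range, which chance gives in about 1 of 20 groups. Of 60 groups of list medians 2 met this, and of 182 groups of single genes 19 did. The list medians were those of astrocyte identity genes in p16KO replicate 4, at -0.024 against 0.123 to 0.152 in the other p16KO libraries, and of the single tested T cell gene in WT replicate 3, at -0.747.

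WT replicate 1 stood above the other WT libraries for Cldn11 (128 CPM), Fa2h (32.4 CPM) and Ttr (713 CPM) and below them for Ccdc171 (2.55 CPM). WT replicate 2 stood above for Klhl9 (126 CPM) and P2ry12 (31.0 CPM) and below for Prox1 (135 CPM) and Pcna (39.9 CPM), and its 1 count of Hist1h2al (0.045 CPM) was the single count in WT. WT replicate 3 stood above for Efcab6 (12.3 CPM) and below for Laptm5 (30.4 CPM) and C3ar1 (0.896 CPM). WT replicate 4 held the 3 WT counts of Gbp2b (0.161 CPM) and was lowest for Ccl3 (0.322 CPM).

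Among p16KO libraries, replicate 2 stood above the others for the smooth muscle genes Tagln (4.4 CPM) and Myh11 (19.9 CPM), and replicate 3 for the pseudogene Gm6166 (3.95 CPM). Replicate 4 stood above for Ttr (2980 CPM) and had 0.0 CPM of Cdkn2a. The p16 effect differed between the settings without and with the transgene for C3ar1, with an interaction of -2.52 on the log2 scale (edgeR adjusted p = 0.00248).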

How the results depend on the processing

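The 0 genes called by edgeR in p16KO against WT became 18 with DESeq2, 9 with limma-voom, 9 with only the 8 libraries and 4 with no filter. The count was 1 without WT replicate 1 and p16KO replicate 4 together. It was between 0 and 8 when single libraries were left out (8 without PS19_p16KO replicate 4). RLE scaling, the stricter CPM filter and the suffix digit term gave 0. With no filter 533 genes were higher and 573 lower at an unadjusted p under 0.05. The interaction, 1 gene, gave 6 with RLE scaling, 88 with DESeq2, 20 with no filter, 13 with the suffix digit term, and 1 to 160 when single libraries were left out (160 without PS19 replicate 3). The replicate numbers did not pair the libraries: the deviations of same-numbered WT and p16KO libraries correlated at -0.173 to -0.0284, and 4 of 16 libraries correlated best with their own number. With the replicate number as a block 0 genes were called in p16KO against WT and 5 in the interaction. Among medians of lists, 507 alternative values moved by less than the spread between replicates. The senescence median turned to 0.0445 with CPM above 1, and the choroid plexus median ran from -1.09 (without p16KO replicate 4) to 3.33 (without WT replicate 1). Genes near 0 changed sign: Cldn5 was at 0.00783 with limma-voom, 0.0127 with the suffix digit term and -0.0729 to 0.0905 with single libraries left out, and Nrgn at -0.00825 with the suffix digit term and -0.0298 to 0.0477. Pcna was at -0.0302 without WT replicate 1 and p16KO replicate 4 together, and at -0.029 to 0.0488 with single libraries left out. With single libraries left out Apoe ran from -0.0311 to 0.111, Gfap from -0.0497 to 0.144 and Ttr from -1.55 to 5.39. The cause of these differences was not tested. For genes below 1 CPM, depth and the 4 libraries a group limit what could be seen to large changes.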
